A study of Bos taurus with 18 samples.

Results

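The Hippo pathway genes described here are 10 genes selected by name on their role and on their levels in these same libraries: the coactivators YAP1 and WWTR1, the DNA-binding factor TEAD1, the scaffold genes AMOTL1 and AMOTL2, the kinase LATS2, the LIM protein gene AJUBA, and the target genes CCN1, CCN2 and ANKRD1. They are 10 of the 30642 genes of the count table, and all 10 were among the 15158 genes with enough reads to be tested. Because the list was put together with earlier results of these counts known, its values are a description, and p-values were adjusted over all 15158 genes and never over the list. Their messenger RNA was followed through heat and recovery in MAC-T, an epithelial line from the cow's mammary gland that was immortalised for long-term culture.

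In the Hippo pathway, the kinases MST1/2 and LATS1/2 phosphorylate the coactivators YAP and TAZ and hold them out of the nucleus. When the kinases are less active, YAP and TAZ enter the nucleus, bind TEAD factors and switch on genes such as CCN1, CCN2 and ANKRD1. In mammary epithelium the pathway is known for its response to cell density, cell shape and adhesion, and several of its own inhibitors are among its targets.

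The 18 libraries formed 6 groups of 3. All cells were cultured for 4 days on plates at 37 °C, in a basal medium that holds fetal bovine serum, insulin and 1 µg/ml hydrocortisone. NHSUD cells were unheated and undifferentiated, in that basal medium. NHSD cells were unheated and differentiated, which here means kept in lactogenic medium, the basal medium with fetal bovine serum, ovine prolactin (5 µg/ml) and dexamethasone (10 µg/ml) added. HSUD and HSD cells were the undifferentiated and the differentiated cells after 1 h at 42 °C on day 4. D2R and D6R cells were differentiated cells that had the same hour of heat and then 2 h or 6 h of recovery at 37 °C. Cells of all groups were detached with trypsin before RNA was taken, and each library pooled 2 technical replicates. The whole experiment was run 3 times, and the replicate number of a library, 1, 2 or 3, is taken here as its run. The unheated groups sat on plate I, the heated groups on plate II and the recovery groups on plate III, so heat or recovery and the plate cannot be told apart. With 1 cell line and 3 runs, p-values measure the spread between libraries of these runs. Where a fit compares libraries within a run, they measure the spread left after the mean differences between runs are removed.

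Library totals ranged from 40.9 to 61.2 M counts. Levels are given in CPM (counts per 1 M counts of the library total, scaled by TMM factors), and they are not compared between genes because gene lengths were not used. The summed level of the heat shock genes HSPA6 and DNAJB1 followed the labels: 95.5 to 122 CPM in unheated, 3237 to 5960 CPM in heated, 146 to 396 CPM in D2R and 111 to 177 CPM in D6R libraries. The epithelial keratins KRT8 (3140 to 4659 CPM) and KRT5 (8583 to 17380 CPM) were present in all 18 libraries. KRT18 was at 1637 to 3114 CPM and KRT14 at 188 to 970 CPM, whereas the luminal keratin KRT19 was at 2.95 to 11 CPM. Fibroblast markers summed to 10.2 to 17.1 CPM, and no endothelial or immune marker had more than 22 counts in a library. The milk protein genes CSN2, CSN3 and LALBA had at most 4 counts in a library, also in lactogenic medium. Differentiated is therefore used here as the name of the medium.

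Of the 10 genes, AMOTL2 and CCN1 were the only ones that passed the test in any fit. AMOTL2 and CCN1 were higher in the group means after 1 h of heat and lower again 2 h and 6 h into recovery. CCN2 followed them in its means without passing the test, and YAP1, WWTR1, TEAD1, LATS2, AJUBA and AMOTL1 had log2 fold changes of at most 0.35 in size. Whether a difference passed the test (edgeR's quasi-likelihood test, adjusted p under 0.05) depended on the fit. The fit without a replicate block called 0 of the 10 genes in all 10 comparisons. The fit with the replicate number as a block, which compares libraries within a run, called AMOTL2 in 4 comparisons and CCN1 in 2. In RNA from whole cultures, a change in the share of cells that express a gene and a change in RNA per cell cannot be told apart.

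**Figure D1:**
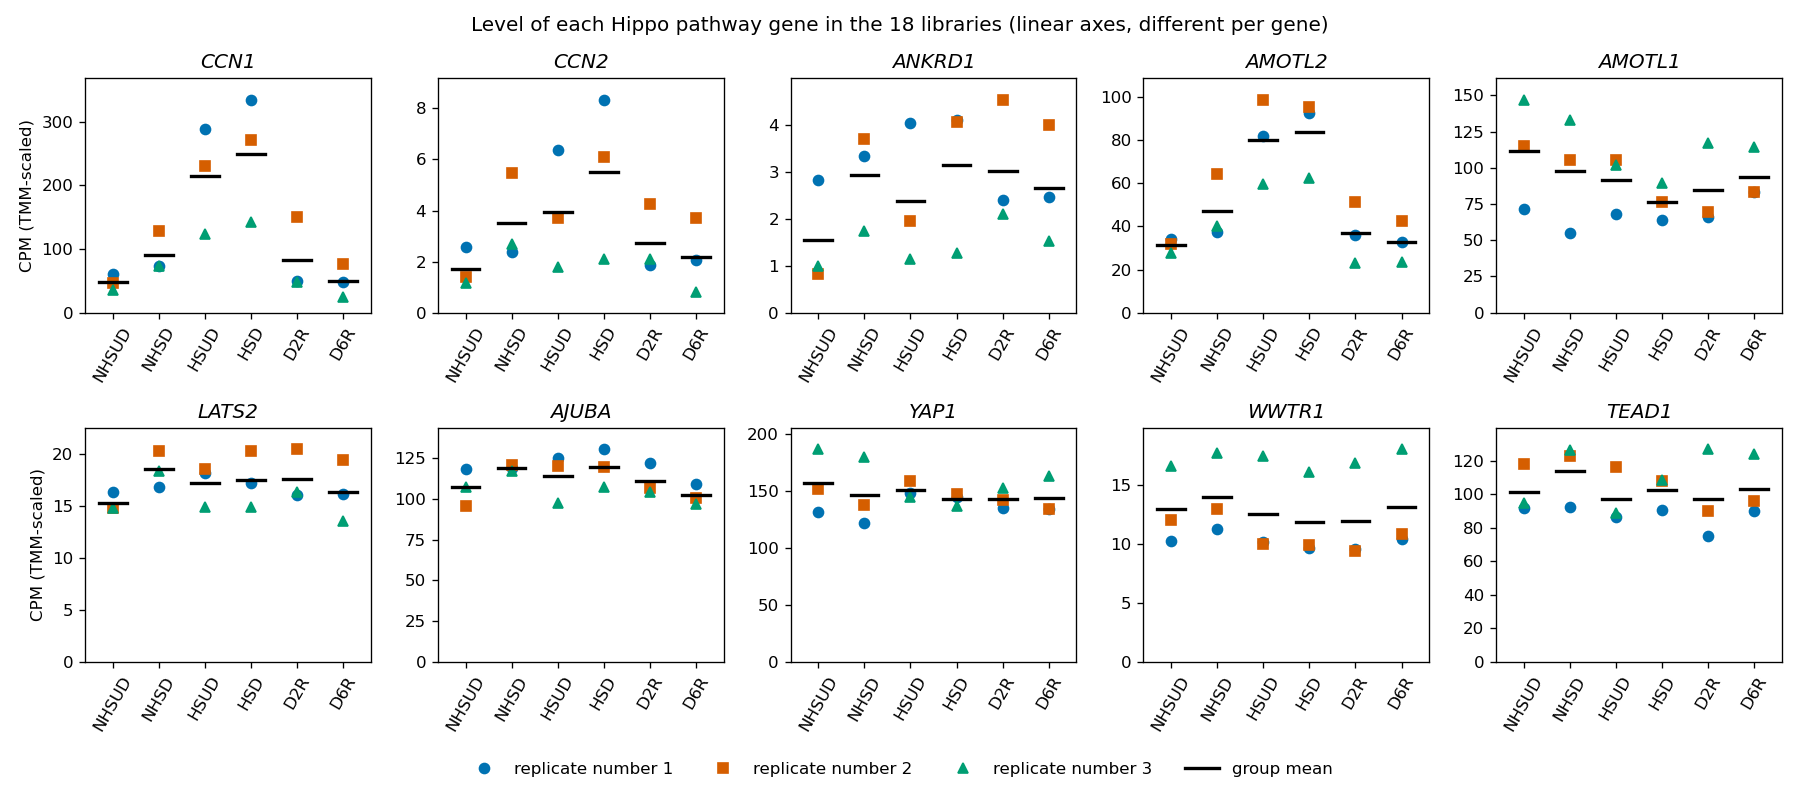
Level of each of the 10 Hippo pathway genes (TMM-scaled CPM on linear axes that start at 0 and differ per gene) in the 6 groups. Points are single libraries, shaped by replicate number, and bars are group means: CCN1 and AMOTL2 are highest in HSUD and HSD, and the replicate number 3 triangles of WWTR1 lie above the other 2 libraries in every group.

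YAP1 encodes YAP, the coactivator that LATS kinases phosphorylate. Its group means ran from 143 ± 5.54 CPM in HSD to 157 ± 28.1 CPM in NHSUD (SD, n = 3), and single libraries from 122 to 187 CPM. All groups overlapped. Its largest log2 fold change in the 9 comparisons of groups was -0.10 ± 0.15 (SE), with the medium in unheated cells, and its lowest edgeR adjusted p was 0.988, or 0.905 with a replicate block. The log2 fold change of YAP1 with heat was -0.06 ± 0.15 in undifferentiated and -0.04 ± 0.15 in differentiated cells, with an edgeR adjusted p of 0.999 and 0.996.

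WWTR1 encodes TAZ, the paralog of YAP. It was at 10.2, 12.0 and 16.6 CPM in NHSUD replicates 1, 2 and 3, at 11.3, 12.9 and 17.7 CPM in NHSD and at 10.1, 10.0 and 17.5 CPM in HSUD. It was at 9.67, 9.91 and 16.1 CPM in HSD, at 9.55, 9.42 and 16.9 CPM in D2R and at 10.5, 10.9 and 18.1 CPM in D6R. Replicate 3 was the highest library of every group, so that all groups overlapped. Its largest log2 fold change was -0.23 ± 0.31 (SE), for heat in differentiated cells, and its lowest edgeR adjusted p was 0.907 without and 0.403 with a replicate block. With the block, the estimate for the same comparison was -0.25 ± 0.12.

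TEAD1 encodes the DNA-binding partner through which YAP and TAZ reach their target genes. Its group means lay between 97.2 ± 16.7 CPM in HSUD and 114 ± 18.6 CPM in NHSD (SD, n = 3). Single libraries ran from 74.8 to 127 CPM, and both of these extremes were D2R libraries (replicates 1 and 3). Its largest log2 fold change was -0.22 ± 0.19 (SE), for D2R against NHSD, and its lowest edgeR adjusted p was 0.99, or 0.567 with a replicate block. The groups overlapped in every comparison.

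AMOTL2 encodes a member of the angiomotin family, membrane scaffolds that bind YAP and keep it in the cytoplasm, and the gene is itself commonly counted as a YAP target. Before heat it was at 34.2, 31.7 and 27.8 CPM in NHSUD replicates 1, 2 and 3, and at 37.4, 64.05 and 40.1 CPM in NHSD. After heat it was at 82.0, 98.7 and 59.6 CPM in HSUD and at 92.6, 95.5 and 62.6 CPM in HSD. During recovery it was at 36.1, 51.4 and 23.2 CPM in D2R and at 33.0, 42.3 and 23.6 CPM in D6R. The heated undifferentiated libraries all lay above the unheated ones, whereas in differentiated cells NHSD replicate 2 (64.05 CPM) was above HSD replicate 3 (62.6 CPM). All D2R and D6R libraries lay below all HSD libraries.

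With the replicate block, AMOTL2 rose with heat by 1.32 ± 0.15 on the log2 scale in undifferentiated cells (edgeR adjusted p = 4.555e-05) and by 0.83 ± 0.14 in differentiated cells (adjusted p = 0.00683). In the same fit it fell by 1.22 from HSD to D2R (SE 0.15, adjusted p = 0.000149) and by 1.36 from HSD to D6R (SE 0.15, adjusted p = 3.885e-05). Without the block the 4 estimates were 1.36 ± 0.29, 0.82 ± 0.29, -1.18 ± 0.29 and -1.34 ± 0.29, with edgeR adjusted p of 0.0979, 0.791, 0.323 and 0.147. The heat estimate and both recovery estimates of differentiated cells share the 3 HSD libraries and are not independent. D2R and D6R did not reach a call against unheated NHSD cells, with log2 fold changes of -0.39 ± 0.14 (adjusted p = 0.349) and -0.53 ± 0.14 (adjusted p = 0.0674) under the block. Both estimates were below 0 in 3 of 3 runs. The medium difference in unheated cells was 0.56 ± 0.14 with the block (edgeR adjusted p = 0.367) and 0.60 ± 0.29 without it (adjusted p = 1). The blocked estimate was 0.34 ± 0.15 without replicate number 2 and 0.75 ± 0.16 without number 1.

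AMOTL2 kept its call under the block with any 1 of the 3 replicate numbers left out for heat in undifferentiated cells and for both recovery times against HSD. The call for heat in differentiated cells was lost without replicate number 1, where the estimate was 0.59 ± 0.16 (edgeR adjusted p = 0.0589). The difference between the heat effects of the 2 media was -0.49 ± 0.20 on the log2 scale (block, adjusted p = 1), so the heat effects were not shown to differ. It was -0.20 ± 0.22 without replicate number 2 and -0.75 ± 0.23 without number 1.

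AMOTL1 encodes the close relative of AMOTL2. Its group means were 112 ± 37.8 CPM in NHSUD, 97.85 ± 39.4 in NHSD, 92.0 ± 20.7 in HSUD, 76.7 ± 12.9 in HSD, 84.4 ± 28.4 in D2R and 93.5 ± 17.8 in D6R (SD, n = 3). Its largest log2 fold change was -0.35 ± 0.31 (SE), for heat in differentiated cells, with the opposite sign to AMOTL2. The runs differed in sign there: 0.21 in run 1, -0.47 in run 2 and -0.56 in run 3. AMOTL1 was not called in any comparison (lowest edgeR adjusted p of 0.812 without and 0.281 with the block). From HSD to D6R its estimate was 0.29 ± 0.16 with the block and was positive in 3 of 3 runs, again opposite in sign to AMOTL2.

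LATS2 encodes a kinase that phosphorylates YAP and TAZ, and it is also used as a target gene. Its lowest group mean was 15.3 ± 0.913 CPM, in NHSUD, and its highest 18.5 ± 1.74 CPM, in NHSD (SD, n = 3). The 3 NHSD libraries (16.85, 20.3 and 18.4 CPM) lay above the 3 NHSUD libraries (16.4, 14.8 and 14.8 CPM). This difference was 0.27 ± 0.16 on the log2 scale (edgeR adjusted p = 1, and 0.937 with the block). In the other groups LATS2 libraries ran from 13.6 to 20.5 CPM, and the log2 fold change with heat was 0.17 ± 0.16 in undifferentiated and -0.08 ± 0.16 in differentiated cells.

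AJUBA encodes a LIM protein that binds LATS kinases at tensed cell junctions and restrains them. It was at 119, 121 and 117 CPM in NHSD replicates 1, 2 and 3, at 131, 119.8 and 108 CPM in HSD and at 109, 101 and 97.1 CPM in D6R. The D6R libraries lay below all NHSD libraries but overlapped HSD. The log2 estimate from HSD to D6R was -0.22 ± 0.12 without and -0.22 ± 0.09 with the block (edgeR adjusted p = 0.644 and 0.151). The estimate was negative in 3 of 3 runs, as it was for D6R against NHSD and for D6R against D2R.

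CCN1, listed in the table under its older name CYR61, encodes a secreted matrix-associated protein that binds integrins and is among the most widely used YAP targets. Before heat it was at 60.4, 46.6 and 35.4 CPM in NHSUD replicates 1, 2 and 3 and at 72.7, 129 and 72.8 CPM in NHSD. After heat it was at 289, 231 and 123 CPM in HSUD and at 335, 271 and 142 CPM in HSD. During recovery it was at 49.9, 150.5 and 47.5 CPM in D2R and at 48.2, 75.95 and 25.0 CPM in D6R. Heated libraries lay above unheated ones in both media, all D6R libraries lay below all HSD libraries, and D2R overlapped HSD through D2R replicate 2.

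The log2 fold change of CCN1 with heat was 2.17 ± 0.49 (SE) in undifferentiated cells, a 4.51-fold difference, and 1.45 ± 0.48 in differentiated cells, a 2.73-fold difference. The edgeR adjusted p was 0.132 and 0.721. With the block, CCN1 rose in undifferentiated cells by 2.11 ± 0.36 (adjusted p = 0.0247), and the estimate in differentiated cells was 1.41 ± 0.35 (adjusted p = 0.147). From HSD to D6R it fell by 2.39 with the block (SE 0.37, adjusted p = 0.0103), against -2.33 ± 0.49 without it (adjusted p = 0.13). From HSD to D2R the estimate was -1.66 ± 0.36 with the block (adjusted p = 0.115) and -1.59 ± 0.48 without it (adjusted p = 0.748). The comparisons against HSD again share the HSD libraries with the heat comparison.

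The CCN1 calls depended on single runs. With the block, the call for heat in undifferentiated cells held without replicate number 1 (edgeR adjusted p = 0.0309) and was lost without number 2 (0.0876) or number 3 (0.57). The call for D6R against HSD held without number 1 (0.00798) or number 2 (0.0258) and was lost without number 3 (0.415). The estimates themselves stayed between 2.02 and 2.28 for heat and between -2.68 and -2.12 for recovery. At 6 h the CCN1 level was also lower than in unheated NHSD cells in 3 of 3 runs, with an estimate of -0.98 ± 0.35 under the block that was not called (adjusted p = 0.202).

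CCN2, listed as CTGF, encodes the connective tissue growth factor, a relative of CCN1. It had 43 to 422 counts in a library. It was at 2.56, 1.39 and 1.17 CPM in NHSUD replicates 1, 2 and 3, at 2.36, 5.46 and 2.69 CPM in NHSD and at 6.37, 3.71 and 1.79 CPM in HSUD. It was at 8.34, 6.09 and 2.12 CPM in HSD, at 1.87, 4.26 and 2.09 CPM in D2R and at 2.05, 3.70 and 0.798 CPM in D6R. The groups overlapped in every comparison, and replicate 3 was the lowest library in 4 of the 6 groups.

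No CCN2 difference was called. The largest were heat in undifferentiated cells, at 1.21 ± 0.60 on the log2 scale without and 1.12 ± 0.44 with the block (edgeR adjusted p = 0.999 and 0.322), and D6R against HSD, at -1.34 ± 0.59 and -1.35 ± 0.43 (adjusted p = 0.578 and 0.0873). Heat in differentiated cells gave 0.66 ± 0.58, and the 3 runs differed in sign: 1.80 in run 1, 0.16 in run 2 and -0.34 in run 3. CCN2 was higher in HSD than in HSUD in 3 of 3 runs and lower in D6R than in HSD in 3 of 3 runs.

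ANKRD1 encodes an ankyrin repeat protein that shuttles between nucleus and cytoplasm and is used as a YAP target in many cell types. It had 36 to 258 counts in a library. Its group means were 1.55 ± 1.11 CPM in NHSUD, 2.92 ± 1.04 in NHSD, 2.38 ± 1.50 in HSUD, 3.15 ± 1.63 in HSD, 3.01 ± 1.33 in D2R and 2.66 ± 1.25 in D6R (SD, n = 3). Its log2 fold change with heat in differentiated cells was 0.11 ± 0.56 and that from HSD to D6R was -0.24 ± 0.56, where the estimates of CCN1 for the same libraries were 1.45 ± 0.48 and -2.33 ± 0.49. The largest estimate was 0.90 ± 0.57, with the medium in unheated cells (edgeR adjusted p = 1, and 0.874 with the block). That value was 1.68 when NHSUD replicate 1, the highest NHSUD library at 2.83 CPM, was left out. This fit had no block and kept NHSD replicate 1, so 1.68 also holds differences between runs. Within run 1 the medium difference was 0.23.

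The group means of CCN1, CCN2 and AMOTL2 stood in one order: HSD, HSUD, NHSD, D2R, D6R, NHSUD from highest to lowest. For CCN1 they were 249 ± 98.0, 214 ± 84.0, 91.4 ± 32.2, 82.6 ± 58.7, 49.7 ± 25.5 and 47.5 ± 12.5 CPM (SD, n = 3). For AMOTL2 they were 83.6 ± 18.2, 80.1 ± 19.7, 47.2 ± 14.7, 36.9 ± 14.1, 33.0 ± 9.37 and 31.2 ± 3.21 CPM. For CCN2 they were 5.52 ± 3.15, 3.96 ± 2.30, 3.50 ± 1.70, 2.74 ± 1.32, 2.18 ± 1.46 and 1.71 ± 0.749 CPM. In all 3 genes each group overlapped its neighbour in that order.

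Within each run, the heat difference of CCN1 in undifferentiated cells was 2.26, 2.31 and 1.80 on the log2 scale in runs 1, 2 and 3. In differentiated cells it was 2.20, 1.07 and 0.97, so that run 1 alone kept its size between the media. AMOTL2 gave 1.26, 1.64 and 1.10 in undifferentiated and 1.30, 0.58 and 0.64 in differentiated cells, with the same run standing out. In runs 2 and 3 NHSD cells had more CCN1 than NHSUD cells by 1.46 and 1.04, and in run 1 by 0.27. The interaction estimate of CCN1 was -0.73 ± 0.66 without and -0.71 ± 0.49 with the block, both with an edgeR adjusted p of 1. The blocked estimate was -0.46 ± 0.44 without replicate number 2 and -1.01 ± 0.39 without number 1.

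**Figure D2:**
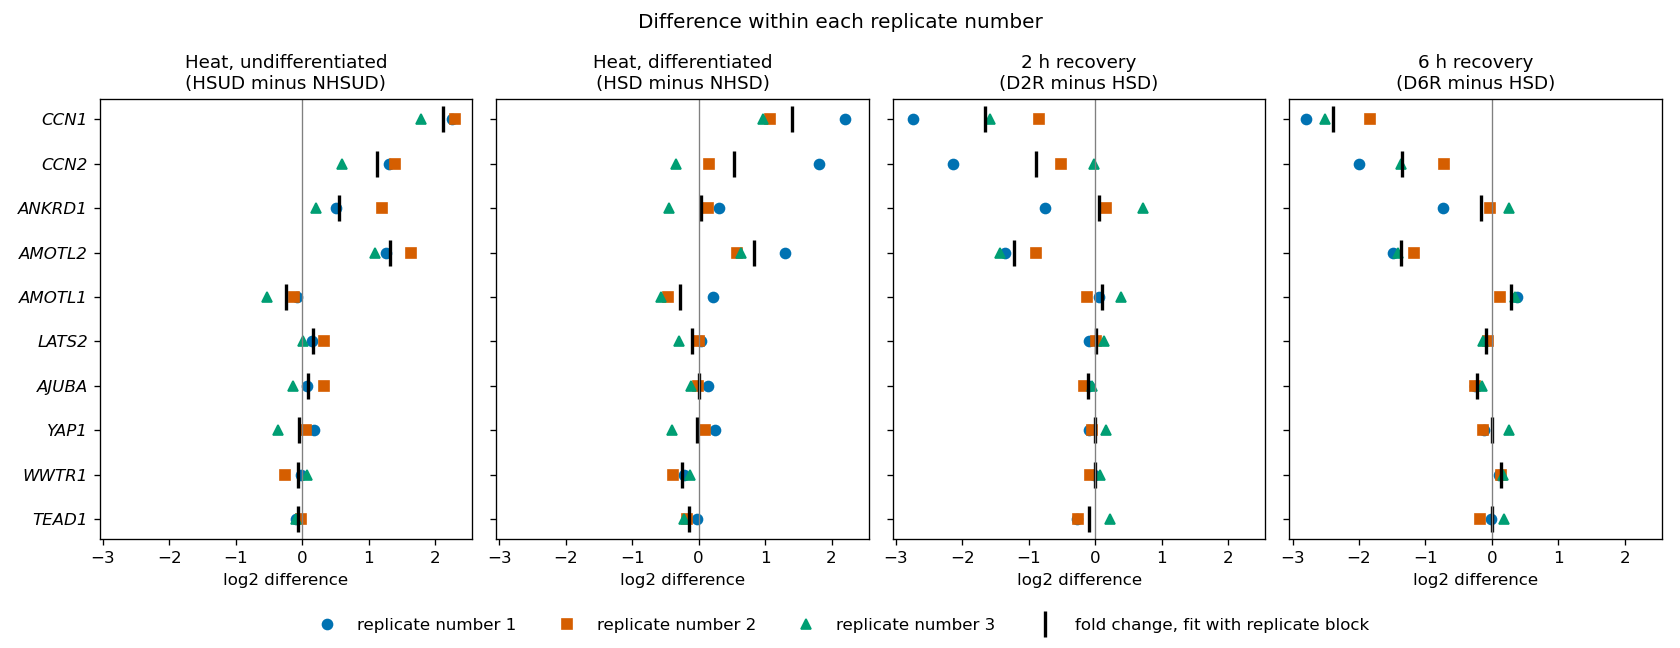
Log2 difference of each gene within replicate numbers 1, 2 and 3 (points) and the fold change of the fit with a replicate block (black bars), for heat in both media and for 2 h and 6 h of recovery against HSD. CCN1 and AMOTL2 lie to the right of 0 in all 3 runs for heat and to the left in all 3 for recovery, and YAP1, WWTR1, TEAD1, LATS2 and AJUBA stay near 0.

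Counted over the list, heat in undifferentiated cells gave 0 of 10 calls without the block, where edgeR called 0.125% of all tested genes. AMOTL2 and CCN1, 2 of the 10, had an unadjusted p under 0.05 there, as did 4.21% of all genes. DESeq2 called the same 2 (adjusted p = 0.00184 and 0.0171) among 84 genes in all. With the block 2 of 10 were called higher, against 0.633% of all genes. Both also had no overlap between groups, against 3.99% of all genes higher without overlap. Since the genes were selected on such values, nothing is read from these shares.

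Heat in differentiated cells gave 0 of 10 calls without the block (0.099% of all genes). AMOTL2 and CCN1, 2 of the 10, had an unadjusted p under 0.05 there, against 4.42% of all genes. DESeq2 called 0 of the 10, among 61 genes in all. With the block 1 of 10 was called (AMOTL2), against 0.554% of all genes. CCN1 was the gene without overlap, against 3.75% of all genes higher without overlap. The interaction of heat and medium gave 0 calls among the 10 and 0% among all genes in both fits and by DESeq2. At an unadjusted p under 0.05 edgeR had 0 of the 10 without and 1 with the block, AMOTL2, against 0.581% and 1.02% of all genes.

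The lactogenic medium gave 0 of 10 calls in either fit and by DESeq2, which called 0 genes in all. In unheated cells edgeR called 0% of all genes without and 0.0066% with the block. In heated cells the shares were 0% and 0.0198%. At an unadjusted p under 0.05 edgeR had 0 of 10 without the block in both, and with it 5 of 10 in unheated (AMOTL2, CCN1, CCN2, ANKRD1 and LATS2) and 0 in heated cells. Over all genes these shares were 1.67% in unheated and 1.76% in heated cells without the block, and 5.31% and 6.35% with it. AMOTL2, CCN1 and LATS2 were higher in NHSD than in NHSUD without overlap, against 3.44% of all genes. The median log2 fold change of the 10 genes was 0.22 in unheated and 0.06 in heated cells, and over all tested genes it was 0.00 and -0.03.

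Against NHSD, D2R gave 0 of 10 calls, with 0.0792% of all genes called without and 0.224% with the block. DESeq2 called 0 of 10 there, among 33 genes in all. D6R also gave 0 of 10 calls, with 0.0132% of all genes called without and 1.45% with the block. By DESeq2 it gave 0 of 10, among 39 genes in all. None of the 10 (0 of 10) had an unadjusted p under 0.05 without the block, against 3.08% of all genes at 2 h and 6.07% at 6 h. With it there were 2 of 10 at 2 h (AMOTL2 and WWTR1), against 10.15% of all genes, and 3 of 10 at 6 h (AMOTL2, CCN1 and AJUBA), against 15.8%. Nothing is read from these counts, since the genes were selected on their levels in these libraries. AJUBA was lower in D6R without overlap, against 4.12% of all genes.

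Against HSD, D2R gave 0 of 10 calls without the block (0.0528% of all genes) and 1 lower with it, AMOTL2 (0.389%). DESeq2 also called AMOTL2 (adjusted p = 0.0299), among 40 genes in all. AMOTL2 was the gene without overlap, against 3.98% of all genes lower without overlap. D6R against HSD gave 0 of 10 calls without the block (0.066%) and 2 lower with it, AMOTL2 and CCN1 (3.27%). DESeq2 called the same 2 (adjusted p = 0.00293 and 0.00737) among 88 genes in all. Both were without overlap, against 6.62% of all genes. At an unadjusted p under 0.05 the fit without the block had 2 of 10 at 2 h (AMOTL2 and CCN1) and 3 of 10 at 6 h (AMOTL2, CCN1 and CCN2), against 3.53% and 8.34% of all genes. With the block there were 2 of 10 at 2 h (the same genes) and 4 of 10 at 6 h (AJUBA in addition), against 8.85% and 22.5% of all genes. D6R against D2R gave 0 of 10 calls and 0% of all genes in both edgeR fits. At an unadjusted p under 0.05 it gave 0 of 10, against 3.86% of all genes without and 11.9% with the block. DESeq2 called 0 of 10 there and 1 gene in all.

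The direction within runs was also counted. With the medium in unheated cells, 7 of the 10 genes were higher in 3 of 3 runs (17.0% of all genes) and 2 lower (18.8%). With heat, 5 were higher in undifferentiated (17.75% of all genes) and 2 in differentiated cells (15.96%). In each of these 2 comparisons 2 were lower (16.7% and 14.4% of all genes). From HSD, 4 were lower in D2R (18.1% of all genes), and 5 were lower (21.15%) and 2 higher (20.6%) in D6R. Against NHSD, 3 were lower in D2R (15.3%) and 6 in D6R (20.4%). The medium in heated cells gave 3 higher (13.3% of all genes) and 3 lower (13.95%). D6R against D2R gave 1 higher (17.3%) and 2 lower (18.1%). The interaction of heat and medium gave 0 higher (7.4%) and 4 lower (9.59%). As the genes were selected on their levels in these libraries, nothing is read from these shares.

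The spread of each gene over the 18 libraries was divided into a share between the 6 groups and a share between the 3 replicate numbers. AMOTL2 and CCN1 had 76.0% and 74.4% of their log2 spread between groups, and 18.4% and 16.2% between replicate numbers. The median over all tested genes was 27.6% and 34.9%. Both kinds of share also hold spread that arises without any true difference, which was not taken off. The genes were selected on their levels in these libraries, so nothing is read from their distance to the median. WWTR1 stood at the other end, with 6.33% between groups and 90.4% between replicate numbers. AMOTL1 had the next largest share between replicate numbers among the 10, 65.5%, with 15.5% between groups. YAP1 had 9.02% between groups and 40.1% between replicate numbers, and CCN2 37.8% and 34.3%.

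**Figure D3:**
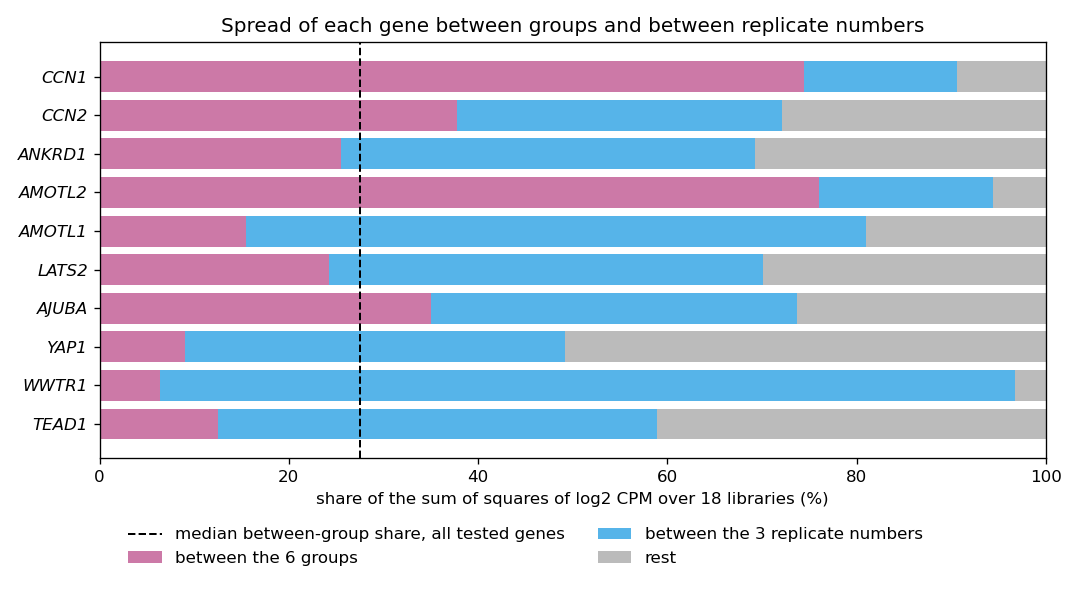
Share of each gene's sum of squares of log2 CPM over 18 libraries (%, stacked bars) that lies between the 6 groups, between the 3 replicate numbers and in the rest. The dashed line is the median between-group share of all tested genes (27.6%). CCN1 and AMOTL2, which were selected on their levels in these libraries, lie above it, and WWTR1 is nearly all between replicate numbers.

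The genes took different sides of the run difference. The geometric mean of WWTR1 was 10.2 CPM (replicate number 1), 10.8 CPM (number 2) and 17.2 CPM (number 3), and number 3 was above number 1 in 6 of 6 groups. The same held for AMOTL1 (67.7, 91.1 and 116 CPM) and TEAD1 (87.4, 108 and 110.5 CPM) in 6 of 6 groups and for YAP1 in 4 of 6. ANKRD1 (3.16, 2.81 and 1.45 CPM) and AJUBA were below in 6 of 6 groups. CCN1 (100.4, 127.5 and 61.5 CPM) and AMOTL2 (47.6, 58.9 and 36.3 CPM) had replicate number 3 above number 1 in 1 of 6 groups. Number 3 therefore combined the highest mean levels of both coactivators, TEAD1 and AMOTL1 with the lowest of CCN1, CCN2, ANKRD1, AMOTL2, LATS2 and AJUBA. What differed between the runs was not tested.

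As a description over the 18 libraries, which share groups and runs, the genes' log2 CPM was correlated after the mean of each replicate number was taken away. AMOTL2 and CCN1 had a Pearson correlation of 0.96, CCN1 and CCN2 of 0.86 and ANKRD1 and LATS2 of 0.82. CCN1 and ANKRD1 reached 0.41, and CCN1 and YAP1 0.01. AMOTL1 was negatively correlated with CCN1 (-0.42) and with ANKRD1 (-0.53).

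The other genes of the pathway came from a list of 51 by role, of which 48 were tested and 38 of those are not among the 10. DCHS1, FOXF2 and RBMS3 had at most 6 counts in a library and were not tested. Without the block edgeR called 0 of the 38 in every comparison. DESeq2 also called 0 of them, among 0 to 88 genes in all. With the block edgeR called 3 of the list's targets in any comparison, FJX1, AXL and IGFBP3. These were 1 of the 38 for heat in differentiated cells (0.554% of all genes), 2 for D6R against NHSD (1.45%) and 2 for D6R against HSD (3.27%). At an unadjusted p under 0.05 edgeR without the block had 0 to 3 of the 38, against 0.581% to 8.34% of all genes. The 3 were in D2R against NHSD (3.08% of all genes). With the block there were 7 of 38 for D2R against NHSD (10.15%) and 5 for D6R against NHSD (15.8%). There were 3 for D6R against HSD (22.5%). None of the upstream regulators such as NF2 and FAT1, the kinases STK3, STK4 and LATS1, their adaptors SAV1, MOB1A and MOB1B, or the other TEAD genes was called.

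FJX1, which encodes a kinase of the Fat and Dachsous branch, fell with heat in differentiated cells by 0.61 on the log2 scale (block, SE 0.14, edgeR adjusted p = 0.044). It stood at 31.6, 37.6 and 34.1 CPM in NHSD and at 24.8, 23.2 and 19.9 CPM in HSD. These 2 groups did not overlap, against 4.14% of all genes lower without overlap. At 6 h of recovery it was lower than in NHSD by an estimate of -0.57 ± 0.14 (adjusted p = 0.0385), and the heat estimate in undifferentiated cells, -0.54 ± 0.14, was not called (adjusted p = 0.0836). Its direction with heat was the opposite of that of CCN1 and AMOTL2. Both FJX1 calls were lost without replicate number 2 (edgeR adjusted p = 0.611 and 0.225) or number 3 (0.42 and 0.468).

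AXL, a receptor tyrosine kinase gene, was at 19.4, 27.9 and 19.2 CPM in NHSD, at 20.5, 28.2 and 14.85 CPM in HSD and at 14.3, 19.4 and 10.8 CPM in D6R. With the block it fell by 0.60 from NHSD to D6R (SE 0.12, edgeR adjusted p = 0.0185) and by 0.51 from HSD to D6R (SE 0.12, adjusted p = 0.0303). Its heat estimate in differentiated cells was -0.09 ± 0.12. IGFBP3, a secreted binding protein of insulin-like growth factors, rose from HSD to D6R by 0.48 ± 0.13 with the block (adjusted p = 0.0431), from 199, 209 and 264 CPM to 256, 293 and 400.0 CPM. The calls of AXL and IGFBP3 were lost without replicate number 2 or 3, and that of AXL against HSD also without number 1 (edgeR adjusted p = 0.0515).

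Over the 15 tested targets that are not among the 10, heat in undifferentiated cells gave 4 positive and 11 negative log2 fold changes with a median of -0.13 without the block. Heat in differentiated cells also gave 4 positive and 11 negative, with a median of -0.20. The median over all tested genes was 0.01 and 0.00. From HSD to D6R 9 were positive and 6 negative, with a median of 0.03 against 0.01 over all genes. With the block, 13 of the 15 heat estimates were negative in undifferentiated and 11 in differentiated cells. The share of all genes with a negative estimate was not counted. None of the 15 was called higher with heat in either fit. CCN1, CCN2 and AMOTL2 were selected on their levels in these libraries, so nothing is read from the difference in sign.

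**Figure D4:**
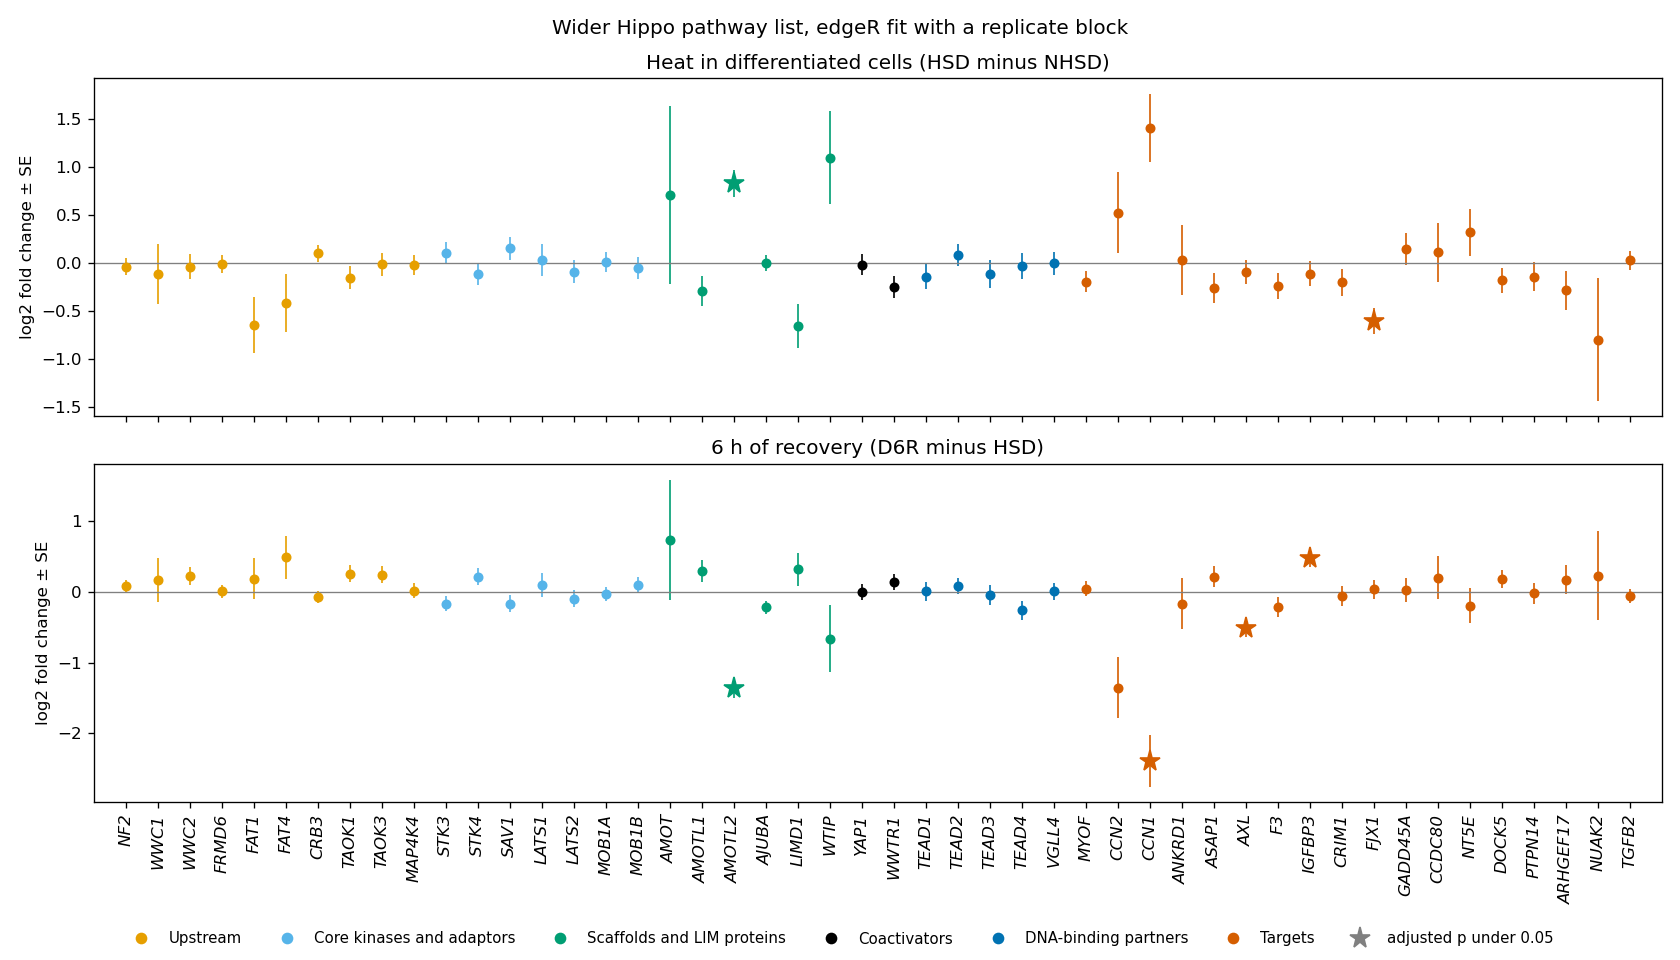
Log2 fold change ± SE of the 48 tested genes of the wider pathway list under the fit with a replicate block, coloured by role, for heat in differentiated cells (HSD minus NHSD) and 6 h of recovery (D6R minus HSD). Stars mark an adjusted p under 0.05: AMOTL2 and FJX1 with heat, and AMOTL2, CCN1, AXL and IGFBP3 in recovery.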

How the data were processed

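Poly-A RNA of 18 MAC-T libraries (6 groups of 3) was sequenced in read pairs. Per the labels' protocols, the authors used fastp 0.23.2 for trimming and STAR 2.7.9a for alignment, with ARS-UCD 1.3 as the genome. Per the submitters' processing notes, featureCounts 2.0.3, DESeq2 and limma were used. The sources used here do not give the annotation or the treatment of strand and of read pairs. The deposited table holds raw counts per gene, and 0 columns were left unmatched. Of the counts from 1 to 19, 72.1% were even, so 2 counts may often stand for 1 read pair. CCN1 and CCN2 were found as CYR61 and CTGF through synonyms in RefSeq's genes for ARS-UCD 2.0, from which no coordinates were taken. 24909 of the 30642 names were found there. No sequences were used here.

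Genes were filtered with filterByExpr (minimum count 10), which left 15158, scaled by TMM and fitted with 1 mean per group in edgeR 4.0.16 (R 4.3.3, quasi-likelihood, robust, two-sided), with Benjamini-Hochberg adjustment over all 15158 genes. SE values come from the F statistic. The same fit with the replicate number as a block was also run. The labels say that the whole experiment was repeated. Deviations from the group means correlated across genes in 45 of 45 same-numbered pairs of libraries (0.135 to 0.596). The numbers were therefore taken to pair the libraries. The 90 other pairs had a median of -0.20, and 6 of them were above 0.1 (highest 0.22). Deviations within a group sum to 0, so positive same-numbered pairs push the other pairs below 0, and their median is no separate evidence. An exact permutation test of 3 against 3 libraries cannot go below p = 0.1 and was not used. The common coefficient of variation was 0.245 without and 0.14 with the block. No 2 libraries of a group agreed within sampling noise (lowest chi-square per gene 63.5). Other alternatives were DESeq2 1.42.0, DESeq2 size factors, library size scaling, no filter, a filter of 5 CPM in 3 libraries, the compared groups alone and leaving out each library. The scripts were tested on simulated data.

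The 10 genes and all lists were chosen with earlier results of these data known. All 10 genes are named, and of the wider pathway list the called genes, at most 3 in each direction per comparison. For CCN2 and AMOTL2 the 4 most similar genes outside the wider pathway list, over the 18 libraries, are named, with a gene symbol and a mean of at least 5 CPM.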

Additional observations from a re-analysis of the deposited data

How the results depend on the processing

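Without a block, 0 of the 10 genes and 0 of the 48 tested pathway genes were called in the 10 comparisons under every scaling, filter, restriction to the compared groups and single library left out. DESeq2 called 2 of each for heat in undifferentiated cells, where it called 84 genes in all. It called 1 of each in D2R against HSD (40 genes in all) and 2 of each in D6R against HSD (88 genes in all). The replicate block called 2 of the 10 genes and 2 pathway genes for heat in undifferentiated cells, 1 and 2 for heat in differentiated cells, 1 and 1 for D2R against HSD, 2 and 4 for D6R against HSD, and 0 and 2 for D6R against NHSD. It changed no other call. With the replicate block and 1 replicate number left out, the counts among the 10 genes ranged from 1 to 2 for heat in undifferentiated cells, from 0 to 1 for heat in differentiated cells and from 1 to 2 for D6R against HSD. Those of pathway genes ranged from 1 to 2 for heat in either medium, from 0 to 1 for D2R against NHSD, from 0 to 2 for D6R against NHSD, from 1 to 2 for D2R against HSD, from 1 to 4 for D6R against HSD and from 0 to 3 for D6R against D2R (WWC1, SAV1 and F3). No fold change of a named gene that was called in either fit reversed its sign. In fits with no block, the largest absolute log2 fold change of YAP1 was 0.28 when NHSD replicate 3 was left out. That of ANKRD1 was 1.68 when NHSUD replicate 1 was left out. The other libraries of the same run stayed in these fits. Library size scaling moved the median of all genes to 0.14 for D6R against HSD and to -0.09 for heat in undifferentiated cells, and by under 0.1 elsewhere. The lowest counts among the 10 genes were 43 for CCN2 and 36 for ANKRD1 in a library.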

Other observations

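Outside the wider pathway list, the genes most like AMOTL2 over the 18 libraries were UBB (0.92), ALKBH1 (0.89), DNAJB1 (0.88) and C25H16orf72 (0.88). The measure was the Pearson correlation of log2 CPM less the mean of the replicate number, among 9722 genes. By rank (Spearman) the correlation was lower for DNAJB1, at 0.59, against 0.82 for UBB, 0.80 for ALKBH1 and 0.81 for C25H16orf72. UBB, a polyubiquitin gene, was at 543 ± 114 CPM in NHSD, 1025 ± 244 CPM in HSD and 454 ± 86.9 CPM in D6R (SD, n = 3). DNAJB1, a co-chaperone of HSP70 and the gene used to check the heat labels, was at 101 ± 8.41 CPM in NHSD, 1527 ± 383 CPM in HSD and 122 ± 19.7 CPM in D6R. Within the list, CCN1 was closer to AMOTL2 (0.96) than any of these. The libraries share groups and runs, and these correlations carry no test.

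The genes outside that list most like CCN2 were DLC1 (0.88), ZDHHC7 (0.88), GUSB (0.86) and RGMB (0.83), over the same 18 libraries. CCN1, which is on the list, had 0.86. RGMB was at 30.1 ± 6.64 CPM in NHSD, 37.1 ± 5.54 CPM in HSD and 26.8 ± 7.27 CPM in D6R (SD, n = 3).

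WWC1, which encodes the Hippo regulator KIBRA, was at 44.1, 91.8 and 101 CPM in D2R replicates 1, 2 and 3, against 38.9, 46.8 and 43.05 CPM in NHSD and 61.6, 43.1 and 28.1 CPM in D6R. The gene was chosen after its values were seen. It was not called over all runs (block, D2R against NHSD, 0.88 ± 0.31 on the log2 scale, edgeR adjusted p = 0.371). It was called in this comparison, against HSD, and between D6R and D2R in the blocked fit without replicate number 1, and in no other fit that was run.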
